A study of Mus musculus with 2 samples.

Results

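The genes described here encode the ubiquitin-conjugating (E2) enzymes and the ubiquitin-specific protease (USP) family of deubiquitinases. They were taken from the array by name, as every non-control probe whose gene name starts with Ube2, or with Usp followed by a digit. The array carried 190 such probes for 81 genes, of 41174 probes for 27597 genes in all. A probe counted as measured when its signal was well above background in the same channel on both arrays. This left 168 probes for 74 genes, of 24434 probes for 16587 genes in all. The measured genes were 29 of 31 E2 genes, with 74 of 81 probes, and 45 of 50 USP genes, with 94 of 109 probes. Ube2d1, Ube2u, Usp26, Usp27x, Usp43, Usp50 and Usp9y had no probe that met this rule, which limits what the array could see and does not show that these transcripts are absent. No probe of a member gene was saturated. Usp6nl came in through its name, although its product is a Rab GTPase-activating protein and not a deubiquitinase.

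The cells were of the mouse line G1E-ER-GATA-1, an erythroid line with no GATA-1 of its own that carries GATA-1 fused to the ligand-binding domain of the oestrogen receptor. One group received siRNA against ETO2, the transcriptional corepressor encoded by Cbfa2t3, and the other received control siRNA. Both groups were GATA-1-null, carried the fusion protein and were kept in β-estradiol for 24 h, so both were maturing under active GATA-1. Each of 2 two-colour arrays held both groups, with the ETO2 siRNA RNA in green (Cy3) and the control RNA in red (Cy5), and the dyes were not swapped. The cells are a single line, and the labels do not say that the arrays came from separate cultures, so errors and p-values here measure only the spread between 2 arrays.

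Ubiquitin is activated by an E1 enzyme, passed to an E2 enzyme and joined to a protein with the help of an E3 ligase, and the E2 often decides which kind of chain is built. Deubiquitinases remove or trim ubiquitin, and the USP family is the largest class of them. Maturing red cells remodel their contents through this system, discarding organelles, ribosomes and nuclear proteins, and in mouse reticulocytes Ube2o tags unassembled and ribosomal proteins for the proteasome.

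The labels name the tissue as erythroid and the cell type as ES cells. All 14 erythroid markers examined were well above background, 11 of them higher and 1 lower after ETO2 siRNA. Their median normalised signal was 20749 in ETO2 siRNA cells and 13758 in control cells. Of 8 embryonic stem cell markers 4 were well above background, with a median signal over the 8 of 91.7 in ETO2 siRNA cells and 93.2 in control cells, and Pou5f1, Nanog, Sox2 and Zfp42 were not well above background. Markers of megakaryocytes were well above background for 5 of 6 genes, with 2 higher and 2 lower, and a median signal of 3817 in ETO2 siRNA cells and 2975 in control cells. Those of mast cells and eosinophils were for 5 of 7, with 2 higher and 1 lower, at low median signals of 128 and 90.9. Granulocyte and macrophage markers were well above background for 4 of 9 genes and lymphocyte markers for 5 of 5, at median signals of 69.2 and 123 in ETO2 siRNA cells and 69.8 and 129 in control cells. The targeted Cbfa2t3 had log2 ratios of -0.39 and -0.46, which is 74.6% of the control level, and its second probe had -0.23 and -0.22, or 85.6%. Whether the shift in erythroid markers plays a part in any difference described below was not tested, and in bulk RNA a change in the mix of cells and a change in RNA per cell cannot be told apart.

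Log2 ratios are ETO2 siRNA over control siRNA throughout, so a positive value means more RNA after ETO2 siRNA. A gene was represented by its brightest measured probe, and "rose", "fell", "higher" or "lower" is used of a single gene when limma's adjusted p over all measured probes was under 0.05. Of the 29 measured E2 genes, 10 rose and 7 fell, and 12 did not pass the test. Of the 45 USP genes, 20 rose and 12 fell, and 13 did not pass. Over all 16587 genes 18.1% rose and 21.9% fell, 40.0% in either direction, against 58.6% of the E2 genes and 71.1% of the USP genes. The median log2 ratio was 0.08 for E2 genes and 0.09 for USP genes, against -0.02 for all genes. These counts depended on how the dyes were balanced. On the scanner software's own processed signals 4 E2 genes rose and 0 fell, and 2 USP genes rose and 2 fell. Of all 16587 genes 951 rose and 1001 fell on those signals. With each array centred on its own median and no loess, 471 of all 16587 genes rose and 10860 fell. Counts of falls under median centring below stand beside this shift of the whole array. By that method the typical gene lay at -0.31, 0 E2 genes rose and 26 fell, and 1 USP gene rose and 29 fell. Relative to that shifted median, 26 of the 30 genes called higher by the first method lay above it, and all 19 called lower lay below it. These positions come from the same 2 arrays and were not tested. Ube2l6 and Ube2z lay only 0.02 above it, and most members that had not passed the test also lay below it.

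The changes were small. Of the 49 genes that passed the test, 23 changed by less than 1.2-fold. None of the 74 genes reached 1.5-fold in one direction on both arrays, a size that 1.33% of all genes reached upward and 1.24% downward. On array 2 alone 3 genes reached it, which were Ube2c, Ube2h and Usp15. The log2 ratio had the same sign on both arrays for 65 of the 74 genes. It was higher on array 2 than on array 1 for 56 of them, against 46.7% of all genes, so the E2 median was 0.02 on array 1 and 0.12 on array 2, and the USP median 0.03 and 0.15. The member genes also gave brighter spots than most, with a median log2 signal of 11.1 against 9.29 for all genes, and brighter genes passed the test more often. Among genes with a log2 signal from 10 to 12, 73.3% of 30 members passed, against 50.6% of all genes, and at 12 or more these shares were 58.3% of 24 members and 54.4% of all genes. Below 8 they were 44.4% of 9 members and 21.7% of all genes, and from 8 to 10 they were 81.8% of 11 members and 48.1% of all genes. The part that brightness plays in the share of members called was not tested further.

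**Figure D1:**
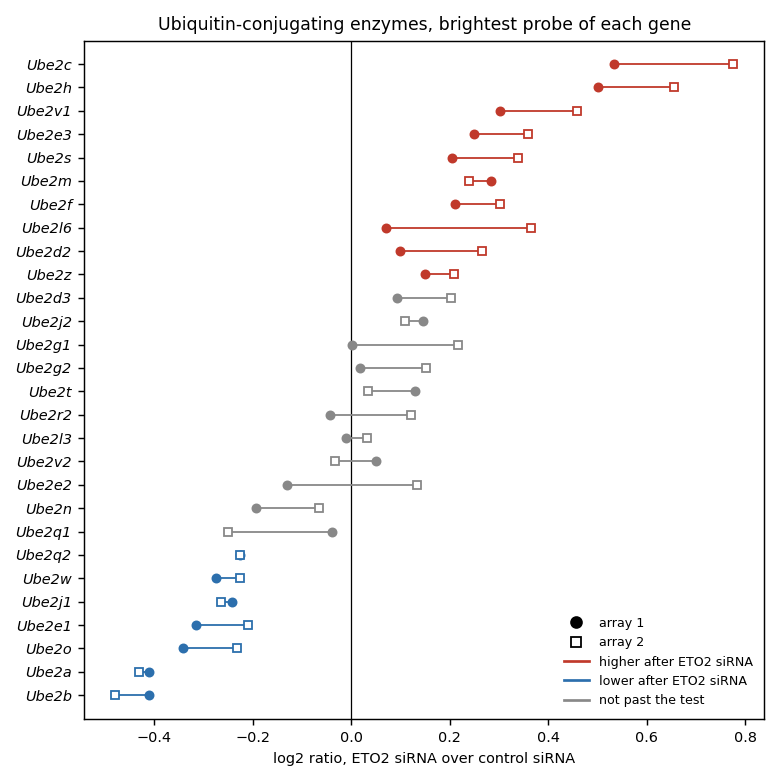
Log2 ratio of ETO2 siRNA over control siRNA (horizontal axis) for 28 of the 29 measured E2 genes, by the brightest probe of each gene. Filled circles are array 1, open squares array 2, and colour marks the 10 genes that rose, the 7 that fell and 11 that did not pass limma's test. Ube2c and Ube2h lie farthest to the right and Ube2b and Ube2a farthest to the left. With median centring in place of loess 26 of the 29 genes fell and 0 rose, where 10860 of all 16587 genes fell.

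Among the E2 enzymes, the largest rise was that of Ube2c, which starts ubiquitin chains on mitotic proteins with the anaphase-promoting complex (APC/C). Its normalised signal was 12216 and 16201 in ETO2 siRNA cells on arrays 1 and 2, against 8439 and 9462 in control cells. Both arrays were higher in the ETO2 siRNA channel, and the log2 ratios were 0.53 and 0.78, a 1.57-fold mean difference with limma's adjusted p = 4.02e-06. Ube2c had 1 probe, on chromosome 2, shown here because the value rests on it alone.
Ube2c: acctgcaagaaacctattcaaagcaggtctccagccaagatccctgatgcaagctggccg

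Ube2h works with the CTLH ligase complex, whose subunit Maea takes part in erythroblast maturation. Its signal was 2018 and 2419 in ETO2 siRNA cells, against 1426 and 1536 in control cells. Each ETO2 siRNA value was above both control values, and the log2 ratio was 0.58 ± 0.11 (SD, n = 2, adjusted p = 7.55e-06). A second Ube2h probe gave 0.28 and 0.54 on the 2 arrays and also rose, while another gave -0.09 and -0.20 and did not pass the test (adjusted p = 0.0882). That last probe differed from the brightest by -0.72 ± 0.18 (SD, n = 2, adjusted p = 0.00443 over 7847 probe pairs).

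Ube2s lengthens the chains that Ube2c begins, and both of its probes rose. These probes overlap by 52 of 60 bases at the end of the coding sequence, and the shared bases are in capitals below, the brighter probe first. Both lie on chromosome 7.
Ube2s probe 1: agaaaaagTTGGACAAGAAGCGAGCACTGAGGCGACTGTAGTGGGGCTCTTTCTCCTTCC
Ube2s probe 2: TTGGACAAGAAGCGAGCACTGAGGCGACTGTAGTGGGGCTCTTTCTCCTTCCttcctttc
Probe 1 gave log2 ratios of 0.20 and 0.34, and probe 2, set 8 bases downstream, gave 0.50 and 0.57. The ranges did not overlap, and probe 2 exceeded probe 1 by 0.26 ± 0.04 (SD, n = 2, adjusted p = 0.0368). Ube2s therefore rose by 1.21-fold on one probe and 1.45-fold on another that shares most of its bases.

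The list of enzymes that build proteasome-directed chains or work in the cell cycle held 9 measured members. Of these 4 rose and 1 fell, where 18.1% of all genes rose and 21.9% fell. On the processed signals 2 were higher and 0 lower. Under median centring, where most genes fell, 7 were lower. Besides Ube2c and Ube2s, Ube2e3 rose with log2 ratios of 0.25 and 0.36, and Ube2d2, a broadly acting E2, with 0.10 and 0.27. The dimmer Ube2d2 probes did not pass, with means of -0.02 and 0.08. Ube2e1 fell, with -0.31 and -0.21. Ube2e2, Ube2g1, Ube2r2 and Ube2d3 did not pass the test, with mean log2 ratios between 0.00 and 0.15. The Ube2e2 probe was dim, with a mean log2 signal of 6.41. Of 4 Ube2r2 probes, however, 1 rose with a mean of 0.19, and Ube2d3 was split by probe. The brightest Ube2d3 probe gave 0.15 ± 0.08 and did not pass, 2 probes fell with means of -0.28 and -0.60, and 1 rose with a mean of 0.20 (SD, n = 2).

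**Figure D2:**
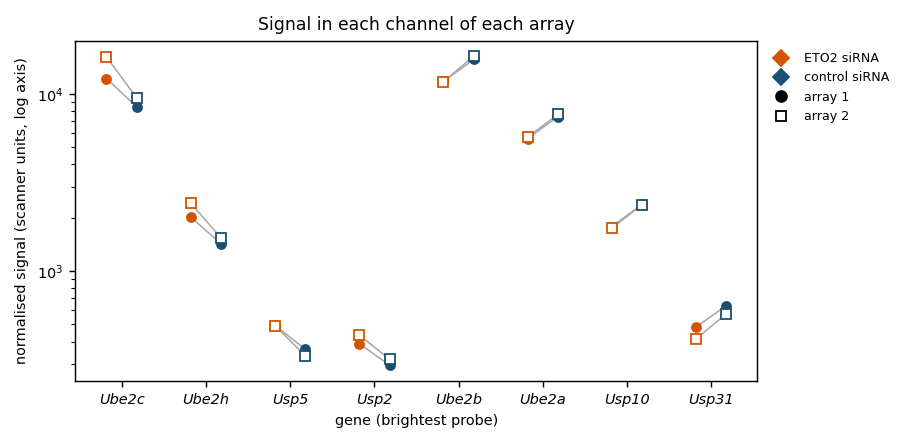
Normalised signal (vertical log axis) in the ETO2 siRNA channel (orange, left of each pair) and the control channel (blue, right), for the brightest probe of 8 genes, with array 1 as circles and array 2 as squares. Lines join the channels of one array. Ube2c, Ube2h, Usp5 and Usp2 slope down to the control channel and Ube2b, Ube2a, Usp10 and Usp31 slope up to it on both arrays. Signals of different probes are not on a common scale.

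The largest E2 falls were in the pair of Rad6 homologues, Ube2b and Ube2a, which mark the replication clamp PCNA after DNA damage and histone H2B in transcription. Ube2b had signals of 11771 and 11724 in ETO2 siRNA cells, against 15648 and 16336 in control cells. The ETO2 siRNA values lay below both control values, and Ube2b was at 73.5% of the control level (log2 ratio -0.44 ± 0.05, SD, n = 2, adjusted p = 6.39e-05). Of its 5 measured probes, 4 fell and 1 did not pass the test, with mean log2 ratios from -0.56 to -0.14. Ube2a had signals of 5598 and 5700 in ETO2 siRNA cells, against 7444 and 7687 in control cells, and its mean log2 ratio was -0.42. The second Ube2a probe fell further, with -0.71 and -0.62, and is 1 of 4 member probes that reached 1.5-fold on both arrays, where 1.10% of all probes did so in each direction. Probe by probe, 38 of the 74 E2 probes passed the test, 21 higher and 17 lower, and 47 of the 94 USP probes, 31 higher and 16 lower, against 18.7% higher and 20.7% lower of all probes. The other members of the DNA damage list did not pass the test, with means of -0.13 for Ube2n, 0.08 for Ube2t and 0.01 for Ube2v2. A dimmer Ube2n probe fell with a mean of -0.22. On the processed signals Ube2b was at -0.27 (adjusted p = 0.0918) and Ube2a at -0.19 (adjusted p = 0.169). Under median centring, where most genes of the array fell, all 5 members of this list fell.

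Ube2n builds lysine-63 chains, which signal without sending proteins to the proteasome, and does so with either of 2 inactive partners. The partner Ube2v1 rose (0.30 and 0.46, adjusted p = 3.45e-04), while Ube2n and the partner Ube2v2 did not pass the test. All 3 Ube2v1 probes rose. The 2 dimmer ones share 30 bases, in capitals below, and lie on chromosome 2.
Ube2v1 probe 2: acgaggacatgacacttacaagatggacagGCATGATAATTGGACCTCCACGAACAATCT
Ube2v1 probe 3: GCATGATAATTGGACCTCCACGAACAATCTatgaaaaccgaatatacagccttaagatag
Probe 2 gave 0.23 and 0.39 and probe 3 gave 0.60 and 0.85, so the ranges did not overlap. The difference between these 2 was not tested, and probe 3 exceeded the brightest Ube2v1 probe by 0.34 ± 0.06 (SD, n = 2, adjusted p = 0.0175). Under median centring Ube2v1, Ube2n and Ube2v2 all fell.

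Some E2 enzymes carry ubiquitin-like proteins, and Ube2m, Ube2f and Ube2l6 of this kind rose on loess-normalised ratios and fell under median centring. Ube2m and Ube2f, the conjugating enzymes for NEDD8, had mean log2 ratios of 0.26 each (adjusted p = 0.00419 and 0.00516). Ube2l6, which conjugates the interferon-induced ISG15, gave 0.07 and 0.36 (mean 0.22, adjusted p = 0.0284). Ube2l6 varied most of these 3 between arrays, and on the processed signals it was at 0.52.

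Ube2o, the enzyme of mouse reticulocytes named above, fell. It had signals of 2835 and 2882 in ETO2 siRNA cells, against 3591 and 3385 in control cells, with no overlap between the groups. Its log2 ratios were -0.34 and -0.23 (adjusted p = 0.00253), and its second, dimmer probe had a mean of -0.12 and did not pass. Of 5 E2 genes listed as linked with red cell maturation, Ube2c, Ube2h and Ube2l6 rose and Ube2b and Ube2o fell. All 5 passed the test, against 40.0% of all genes, but the list was chosen with earlier results of these data known. On the processed signals 3 of the 5 were higher and 0 lower. The rises became values not past the test or falls under median centring. Ube2w, which adds ubiquitin to protein amino termini, fell with a mean of -0.25, and Ube2q2 with -0.23, each on its brightest probe. The dimmer Ube2w probes did not pass, with means of -0.04 and -0.12. Of 4 Ube2q2 probes 2 fell, and the others did not pass, with means of -0.06 and 0.02. Ube2z, which takes ubiquitin from the E1 enzyme Uba6, rose with a mean of 0.18 (adjusted p = 0.0359) on its brightest probe. The dimmer Ube2z probe did not pass, with a mean of -0.02. Ube2l3 and Ube2q1 did not pass, with means of 0.01 and -0.14. Of their dimmer probes, that of Ube2l3 fell with -0.30 and that of Ube2q1 rose with 0.18.

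The 3 E2 enzymes of endoplasmic reticulum quality control gave no common direction on loess-normalised ratios, and all 3 fell under median centring. Ube2j2 and Ube2g2 did not pass the test on their brightest probes, with means of 0.13 and 0.08. Among their dimmer probes, 1 of Ube2j2 fell with a mean of -0.19 and 1 of Ube2g2 rose with 0.39. Ube2j1 went opposite ways on its probes. Its brightest probe had signals of 21517 and 21325 in ETO2 siRNA cells, against 25456 and 25623 in control cells, and fell with log2 ratios of -0.24 and -0.26. Its dimmer probe had 511 and 546 in ETO2 siRNA cells, against 322 and 278 in control cells, and rose with 0.67 and 0.98. The difference between the probes was 1.07 ± 0.23 (SD, n = 2, adjusted p = 0.00324).

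**Figure D3:**
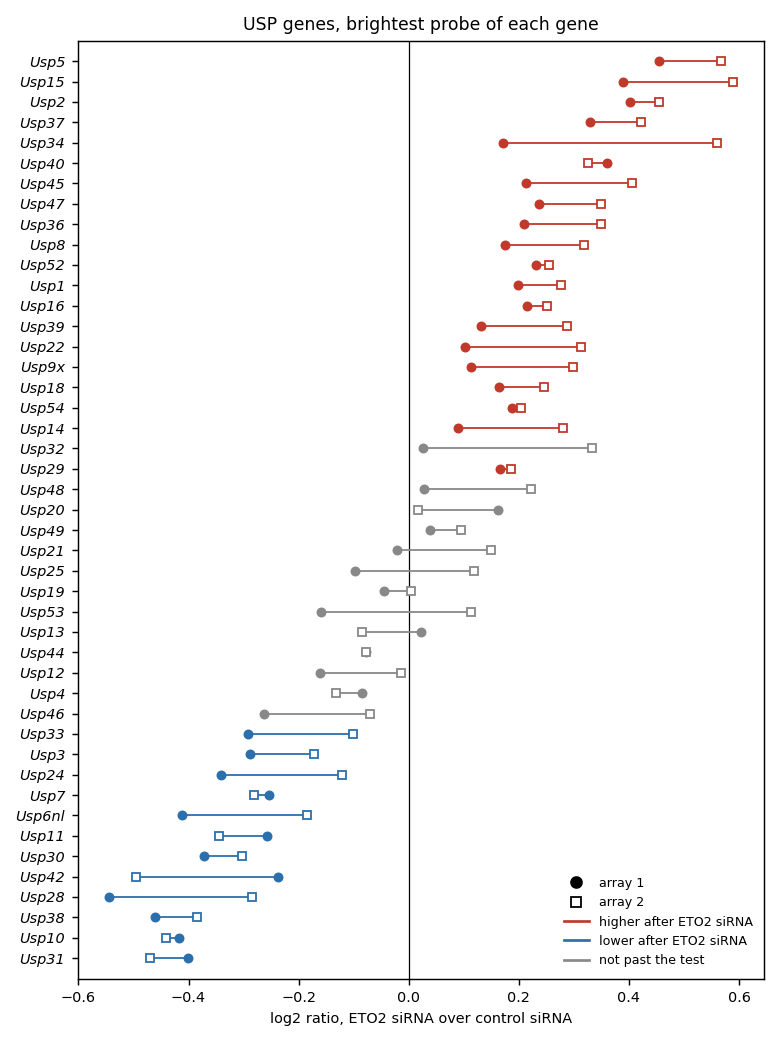
Log2 ratio of ETO2 siRNA over control siRNA (horizontal axis) for the 45 measured USP genes, by the brightest probe of each gene, with symbols and colours as for the E2 genes. The 20 genes that rose include Usp5, Usp15 and Usp2 at the top, and the 12 that fell include Usp31, Usp10 and Usp38 at the bottom. With median centring in place of loess 29 of these genes fell and 1 rose, where 10860 of all 16587 genes fell.

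Among the deubiquitinases the largest rise was in Usp5, which takes apart free ubiquitin chains and so returns single ubiquitin to the pool. Its signal was 495 and 492 in ETO2 siRNA cells, against 361 and 332 in control cells. The log2 ratio was 0.51 ± 0.08 (SD, n = 2), a 1.42-fold rise with adjusted p = 2.04e-05. Usp5 was the 1 member that rose under every normalization tested, median centring included, where its log2 ratio was 0.18 (adjusted p = 0.0308). Its value rests on 1 probe, on chromosome 6, which is shown for that reason.
Usp5: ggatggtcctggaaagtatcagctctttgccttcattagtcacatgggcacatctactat
Usp14, a proteasome-bound trimming enzyme, also rose, with 0.09 and 0.28. The dimmer Usp14 probes did not pass, with means of 0.04 and 0.07. The Usp5 relative Usp13 did not pass the test (0.02 and -0.09), on a dim probe with a mean log2 signal of 6.28.

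Of 9 USP genes assigned to the DNA damage response and p53, 5 fell (55.6%) and 2 rose (22.2%). Over all genes 21.9% fell and 18.1% rose. On the processed signals none of the 9 passed the test. All 9 fell under median centring, where most genes of the array fell. Usp10, which acts on p53 among other proteins, had signals of 1784 and 1748 in ETO2 siRNA cells, against 2382 and 2372 in control cells, which is 74.3% of the control level (log2 ratios -0.42 and -0.44, limma adjusted p = 8.28e-05). Usp28, which stabilises MYC and p53 pathway proteins, gave -0.54 and -0.28, and Usp42 gave -0.24 and -0.50. A second Usp42 probe had a mean of 0.07, did not pass and differed from the brightest by 0.44 (limma adjusted p = 0.00869). Usp11 had a mean of -0.30. Usp7, which removes ubiquitin from the p53 ligase MDM2, fell with -0.25 and -0.28, but on the processed signals it was at 0.01. The rises were in Usp47 and in Usp1, which acts on PCNA and the Fanconi protein FANCD2, with means of 0.29 and 0.24. Of 6 Usp47 probes 2 rose and the others did not pass, the lowest with a mean of -0.18. The mean of all Usp47 probes was 0.09 and did not pass (limma adjusted p = 0.204). Usp4 and Usp48 did not pass, with means of -0.11 and 0.12, although a second Usp4 probe rose with 0.45 and 0.50.

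Of 8 histone deubiquitinases measured, 2 rose and 1 fell, or 37.5% past the test in either direction, near the 40.0% of all genes. Usp16, which removes ubiquitin from histone H2A, rose with a mean of 0.23, and Usp22, the deubiquitinase of the SAGA coactivator complex, with 0.21. Usp3, another enzyme for H2A, fell with -0.23 on the brightest of its 3 probes, and the others did not pass, with means of 0.01 and 0.02. Usp12, Usp21, Usp44, Usp46 and Usp49 did not pass the test, with means from -0.17 to 0.07, although a second Usp46 probe rose with 0.19. On the processed signals 0 of the 8 rose and 1 fell, and under median centring 5 fell and 0 rose.

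The largest group was that of enzymes for endosomes, receptors and other signalling, with 10 higher and 4 lower of 18 measured. These shares were 55.6% and 22.2%, against 18.1% higher and 21.9% lower of all genes. On the processed signals 1 was higher and 1 lower. Under median centring, where most genes fell, 0 were higher and 10 lower. Usp2, which stabilises cyclin D1 and MDM2, had signals of 389 and 435 in ETO2 siRNA cells, against 294 and 318 in control cells, and rose with 0.43 ± 0.04 (SD, n = 2, adjusted p = 8.66e-05). Both of its probes rose. Usp15, which acts on TGF-β receptor signalling, rose on its brightest probe with 0.39 and 0.59. The other rises were in Usp37, Usp34, Usp40, Usp45, Usp36, Usp8, Usp9x and Usp29, with means from 0.18 to 0.38 on their brightest probes. Both probes of Usp40 and of Usp36 rose. A dimmer Usp37 probe rose with 0.20, and another did not pass, with -0.16. The dimmer probes of Usp34 (0.11 and 0.07), Usp45 (0.11), Usp8 (0.02) and Usp9x (-0.01) did not pass. By the mean of probes Usp37, Usp8 and Usp9x did not pass (limma adjusted p = 0.0678, 0.0742 and 0.218). Usp34 differed most between arrays, at 0.17 on array 1 and 0.56 on array 2. The falls were in Usp31, Usp38, Usp24 and Usp33. The dimmer Usp24 probes did not pass, with means of -0.03 and -0.04. Usp31 had signals of 483 and 414 in ETO2 siRNA cells, against 639 and 574 in control cells, and both of its probes fell, with means of -0.44 and -0.36. Usp19, Usp20, Usp25 and Usp32 did not pass the test, although a second Usp19 probe rose with a mean of 0.37.

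Outside these groups, Usp30, which opposes ubiquitin tagging of damaged mitochondria, fell with -0.37 and -0.30 (adjusted p = 6.67e-04). Its dimmer probe did not pass, with a mean of -0.16. Of 5 family members that act mainly on other substrates or have been classed as inactive, 4 rose and 0 fell. Over all genes 18.1% rose and 21.9% fell. On the processed signals 0 of the 5 were higher and 0 lower, and under median centring 0 were higher and 2 lower. Those that rose were Usp18, which removes ISG15 (0.16 and 0.24), and Usp39, an inactive splicing factor (0.13 and 0.29). Usp52, now called Pan2, which shortens poly(A) tails (0.23 and 0.25), and Usp54 (0.19 and 0.20) rose as well. The dimmer Usp52 probe did not pass, with a mean of 0.08. Usp53 did not pass. Usp6nl, the Rab GTPase-activating protein, fell with -0.41 and -0.18.

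Several genes had more than one measured probe, which gave 94 comparisons of a dimmer with the brightest probe in 53 genes. The probes differed in 32 of these, 34.04%, against 34.2% of 7847 such pairs over all genes, and they were called in opposite directions in 4, or 4.26%, against 4.61%. The share of disagreeing probes was thus close to that of the array as a whole. The 4 pairs belonged to Ube2j1, Usp15, Usp33 and Usp38. Of 7 Usp15 probes the brightest rose (0.39 and 0.59), the next fell (-0.34 and -0.13), and the other 5 did not pass the test, with means from -0.14 to 0.14. The 2 that passed are shown, from chromosome 10, because they stand for opposite calls of one gene.
Usp15 probe 1: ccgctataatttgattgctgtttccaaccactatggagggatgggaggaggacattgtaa
Usp15 probe 2: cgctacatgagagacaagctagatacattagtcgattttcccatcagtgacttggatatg
Their difference was -0.72 ± 0.01 (SD, n = 2, adjusted p = 0.00358), so that the rise of Usp15 holds for 1 probe of 7. Usp38 had signals of 2581 and 2519 in ETO2 siRNA cells, against 3554 and 3288 in control cells, on its brightest probe. Its dimmest probe had 293 and 324 in ETO2 siRNA cells, against 269 and 262 in control cells. Its log2 ratios were -0.46 and -0.38 on the brightest and 0.13 and 0.31 on the dimmest, a difference of 0.64 ± 0.07 (SD, n = 2, adjusted p = 0.00436). Usp33 had 3 probes that fell and 1 dim probe that rose, at 0.17 and 0.21.

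**Figure D4:**
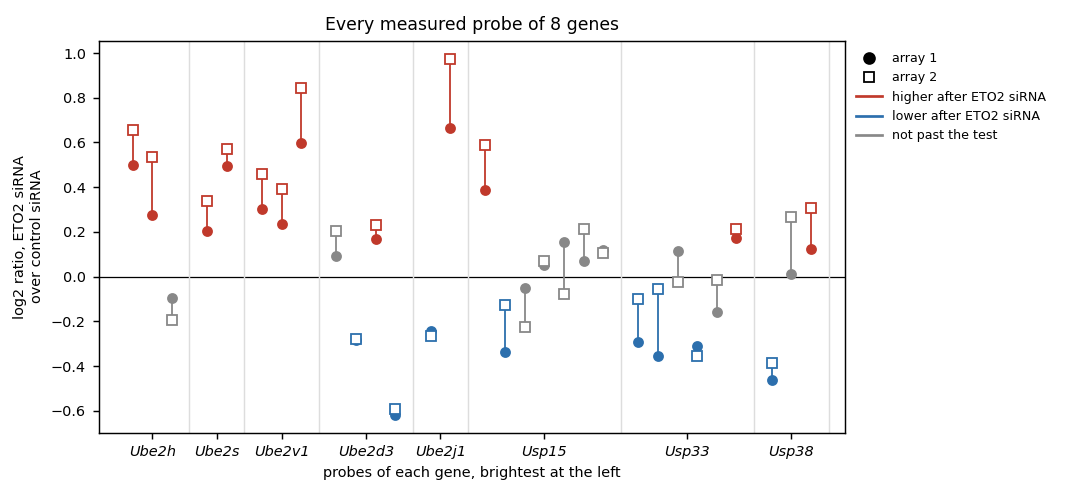
Log2 ratio of ETO2 siRNA over control siRNA (vertical axis) for every measured probe of 8 genes, the brightest probe of each gene at the left, with array 1 as filled circles and array 2 as open squares. Red probes rose, blue probes fell and grey probes did not pass limma's test. Probes of Ube2d3, Ube2j1, Usp15, Usp33 and Usp38 lie on both sides of 0 in red and blue, while those of Ube2s and Ube2v1 all lie above 0. The ratios are loess-normalised.

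The other genes of the pathway were mixed too. Their lists were counted on loess-normalised ratios only, where 18.1% of all genes rose and 21.9% fell, 40.0% in either direction. Of 10 E1 enzymes, 2 rose and 3 fell, or 50% past the test. Uba7, the E1 enzyme for ISG15, rose with a mean of 0.68, and Uba3 (NEDD8) and Uba2 (SUMO) fell with -0.43 and -0.31. Isg15 itself did not pass the test, with -0.08 and -0.09. Its probe was dim, with a mean log2 signal of 6.26 against a median of 9.29 for all genes, so little can be read from it. Among 13 genes for ubiquitin and ubiquitin-like proteins 7 rose and 2 fell, or 69.2% past the test. Of those that rose, the control channel was saturated on both arrays for Fau, Ubb and Rps27a, so no fold is given for them. Ufm1 fell with -0.61, Urm1 rose with 0.28 and Sumo3 with 0.21. E2 enzymes with other names counted 3 higher and 1 lower of 8, or 50% past the test. Among them Birc6, a giant E2 that blocks apoptosis, fell with -0.38, and the autophagy enzyme Atg10 rose with 0.29. Tsg101, an inactive relative that sorts cargo into endosomes, rose with 0.06 and 0.33.

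Deubiquitinases outside the USP family counted 7 higher and 7 lower of 31, or 45.2% past the test, against 40.0% of all genes. Otud4 rose with 0.45 and 0.81, and Uchl4 and Zranb1 fell with means of -0.41 and -0.39. Eif3h was among the 7 higher, with its control channel saturated on both arrays, so no fold is given. Of 7 proteases for SUMO and NEDD8, Senp1 and Senp8 rose with 0.43 and 0.27, and 28.6% of the list passed the test. The CTLH complex, with which Ube2h works, had 4 higher and 2 lower of 11 genes, or 54.5% past the test. Its scaffold subunit Ranbp9 rose with 0.48 and its substrate receptor Gid4 with 0.43, whereas Rmnd5b and Maea, both in the catalytic RING part, fell with -0.42 and -0.21. The APC/C and its regulators had 3 higher and 3 lower of 15 genes, or 40.0% past the test, the same share as of all genes. Its catalytic RING subunit Anapc11 fell with -0.37 and its mitotic activator Cdc20 with -0.26, while the activator Fzr1 rose with 0.26. Ube2c and Ube2s rose beside these.

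Promoters were searched for letters that GATA factors and KLF1 are known to bind. The 250 bases before the annotated start were read from RefSeq (GRCm38.p6), where 62 of the 81 genes matched with 74 promoters. The GATA patterns AGATAA with its variant AGATAG, and TGATAA with its variant TGATAG, on either strand, were found in 3 of the 74 promoters, or 4.05%. They were found in 19.1% of 13333 promoters of measured genes and in 26.5% of all 32851 promoters. The KLF pattern CCACACCC was found in 4.05%, against 3.30% and 3.20% of the same sets. The member promoters were also richer in G and C, with a median of 65.6%, against 58.8% for measured genes and 52.4% for all. The GATA patterns lay before Ube2h, Ube2s and Usp49. Those of Ube2h and Ube2s, which both rose, are printed with the pattern in capitals, from chr6:30243804-30244053 and chr7:4812341-4812590, both on the minus strand. The pattern begins 204 bases before the start in Ube2h and 186 in Ube2s. RefSeq gives Ube2h another promoter as well, in which the 250 bases held no such pattern.
Ube2h: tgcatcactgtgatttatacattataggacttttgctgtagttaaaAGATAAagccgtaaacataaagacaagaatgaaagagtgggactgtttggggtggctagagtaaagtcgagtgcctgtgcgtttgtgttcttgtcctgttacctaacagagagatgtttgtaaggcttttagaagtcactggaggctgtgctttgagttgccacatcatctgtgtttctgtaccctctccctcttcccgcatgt
Ube2s: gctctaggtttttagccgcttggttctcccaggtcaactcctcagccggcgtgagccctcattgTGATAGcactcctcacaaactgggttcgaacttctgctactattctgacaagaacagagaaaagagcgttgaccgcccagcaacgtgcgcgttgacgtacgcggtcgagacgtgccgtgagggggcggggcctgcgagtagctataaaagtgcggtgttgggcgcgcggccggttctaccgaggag
These letters are a match of sequence, and binding was not measured here.

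**Figure D5:**
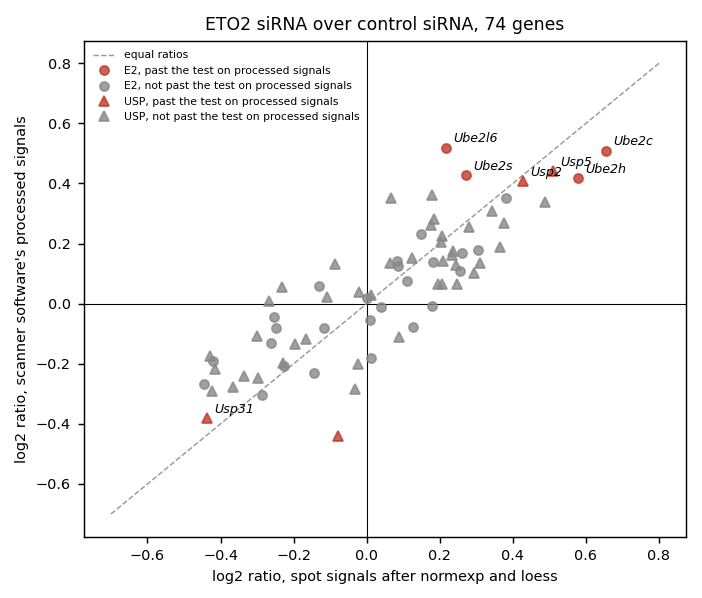
Log2 ratio of ETO2 siRNA over control siRNA on the scanner software's processed signals (vertical axis) against that on loess-normalised signals (horizontal axis), for the 74 measured genes. Circles are E2 and triangles USP genes, and red marks those past limma's test on the processed signals. Named genes passed in the same direction both ways, and the dashed line marks equal ratios.

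The processed signals gave the same sign for 46 of the 49 genes that passed the test, and for 62 of all 74. The 3 called genes that changed sign were Ube2z, Usp7 and Usp24, and Usp24 lay at 0.0538 there. Of the 49 called genes, 7 passed on the processed signals in the same direction. These were Ube2c, Ube2h, Ube2l6, Ube2s, Usp2 and Usp5, which rose, and Usp31, which fell. The spread between arrays was wider there, with a median SD of 0.0916 against 0.0636. Usp44 passed on the processed signals and in the deposited ratio table made from them, with a log2 ratio of -0.44 in each, against -0.08 on loess-normalised signals. Its probe was dim, with a mean log2 signal of 6.42. Under every tested alternative apart from median centring, 4 members held their call, which were Ube2c, Ube2h, Usp2 and Usp5.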

How the data were processed

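RNA from ETO2 siRNA and control siRNA cells was co-hybridised on 2 Agilent two-colour arrays, using 1.2 µg of RNA for each dye according to the protocol per the labels. Per the file headers, Agilent Feature Extraction 9.1.3.1 wrote each deposited spot intensity and its local background on a linear scale, before any normalisation. A processed intensity in the deposited files had its background subtracted and its dyes balanced by the same software, per the file headers. From it comes the deposited log10 ratio, red over green, which the authors' deposited table repeats on all 45018 features, so scale and direction are known. The build behind the probe design is not given in the labels or headers.

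Here, mean signals were corrected by local median background with normexp (offset 50) in limma 3.58.1 (R 4.3.3) and loess-normalised within arrays. The 1639 control features had weight 0, and 10 and 4 outlier spots were left out. Channel signals of named genes and markers were rebuilt from the loess-normalised ratios, with mean log2 signals quantile-normalised between arrays (Aquantile). They are not raw scanner readings, and the difference between channels of an array restates its log2 ratio. Spots of a probe were averaged, the sign was turned to green over red, and lmFit and eBayes tested log2 ratios against 0, two-sided, with Benjamini-Hochberg adjustment over 24434 measured probes. Differences between probes of a gene were fitted alike over 7847 pairs, a test added after the data were seen. With 1 residual degree of freedom and 14.4 prior ones, the p-values rest on the shared variance; a sign permutation of 2 arrays cannot go below p = 0.5. In simulated arrays, 70% of 50 probes changed 1.2-fold were called in the right direction, and 100% of 50 changed 1.5-fold. The simulation held no dye trend and no dye effect specific to a probe, so it cannot test how the dyes were balanced. Median spot signals were 82.8 and 77.5 in the ETO2 siRNA channel and 105 on each array in the control channel, over backgrounds of 44 to 47, and the number of arrays limits the precision. A dye effect specific to a probe enters both arrays alike. Symbols were updated by RefSeq accession for 141 member probes, by symbol for 48 and by synonym for 1. Ube2k and others that the array file lists under older names are not members.

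The members and gene lists were chosen with earlier results of these data known. By rule, values are given for the 3 members of each role list with the largest change, for Ube2c, Ube2h, Ube2o, Ube2l6, Ube2b, Usp7 and Usp18, for genes with opposite probe calls and for up to 3 genes per pathway list. Values of further members were added after these were seen. Alternatives were the processed signals, the deposited ratio table, a normexp offset of 0, median centring, other filters on dim or saturated probes, 1 probe per gene in the fit, the mean of a gene's probes and each array alone. A few genes are counted in the totals without being described individually; their own values are not reported here.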

Additional observations from a re-analysis of the deposited data

How the results depend on the processing

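The counts kept within 1.5 times without the filter on dim probes, with both channels required above background, without saturated probes and with 1 probe per gene in the fit. Higher calls among E2 genes numbered 6 at a normexp offset of 0, 4 on the processed signals, 4 in the deposited ratio table and 0 under median centring, against 10. Lower E2 calls numbered 0 on the processed signals, 0 in the deposited table and 26 under median centring, against 7. For USP genes the higher calls were 2, 2 and 1 and the lower calls 2, 1 and 29 under the same 3 settings, against 20 and 12, and 7 were lower by the mean of a gene's probes. All genes gave 951, 907 and 471 higher and 1001, 928 and 10860 lower calls there, against 3003 and 3633, so that 4.16% of calls were upward under median centring, against 45.3% in the loess-normalised fit and 43.3% to 49.4% under the other alternatives. Median centring put the E2 median at -0.44 and the USP median at -0.28, with 20 members past 1.5-fold on both arrays. Leaving out each array in turn moved the E2 median between 0.02 and 0.12, the USP median between 0.03 and 0.15 and the members past 1.5-fold between 0 and 3. A single array has no residual degrees of freedom, so calls have no such repeat. The test used the pairing of the 2 channels on each array. No further pairing was possible because the replicate number is the array itself. Over all 74 members the sign turned for 40 under median centring, for 12 on the processed signals, for 12 in the deposited table and for 12 by the mean of probes, of which 25, 3, 3 and 1 had passed the test. Among the 39 genes named by rule, it turned under median centring for Ube2d3 (-0.43), Ube2e3 (-0.27), Ube2f (-0.25), Ube2g2 (-0.44), Ube2j2 (-0.35), Ube2l6 (-0.29), Ube2m (-0.24), Ube2s (-0.34), Ube2v1 (-0.21), Ube2v2 (-0.46), Ube2z (-0.28), Usp13 (0.0614), Usp14 (-0.31), Usp15 (-0.0277), Usp16 (-0.28), Usp18 (-0.14), Usp22 (-0.0306), Usp39 (-0.26) and Usp52 (-0.20). By the mean of probes it turned for 4 of the 39, Ube2d3 (-0.13), Ube2j1 (0.28), Ube2j2 (-0.0091) and Ube2v2 (-0.0501), and on the processed signals for 5, Ube2j2 (-0.0781), Ube2n (0.0594), Ube2v2 (-0.0529), Ube2z (-0.0072) and Usp7 (0.0095). In the deposited table it turned for these 5 of the 39 as well, with -0.0781, 0.0594, -0.053, -0.0071 and 0.0095. The cause was not tested.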
